A study of Drosophila melanogaster with 27 samples.

Results

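Trehalose and glycogen are the sugar stores of the fly. Trehalose, a pair of joined glucose units, is the main sugar of the hemolymph, and glycogen is the branched glucose polymer kept inside fat body, muscle and glial cells. Both are built from UDP-glucose. The fat body makes trehalose and releases it, glial cells of the blood-brain barrier take it up, and trehalase splits it back to glucose. Glycogen is built by a synthase and a branching enzyme and taken apart by a phosphorylase.

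The 8 genes described here were chosen by name: Tps1 (trehalose-6-phosphate synthase), Treh (trehalase), Tret1-1 (trehalose transporter), UGP (UDP-glucose pyrophosphorylase), GlyS (glycogen synthase), AGBE (glycogen branching enzyme), GlyP (glycogen phosphorylase) and tobi, a maltase-like alpha-glucosidase whose name stands for target of brain insulin. All 8 are among the 11923 genes of the deposited table, and all 8 were among the 8742 tested. RNA came from pools of 20 heads of female Drosophila melanogaster, as 3 samples from 50-day-old and 3 from 3-day-old flies of the wild-type strain Oregon-R, all kept on standard food at 25 °C. Polyadenylated RNA was sequenced, and the labels call the samples biological triplicates. The other 21 of the 27 samples of the series, with other diets or transgenes, are not analysed here.

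Expression values are taken as FPKM, in which fragment numbers are divided by the length of the gene and the depth of the library. Summed values ran from 504504 to 539645 FPKM in the 50-day libraries and from 427992 to 502587 FPKM in the 3-day libraries, and the smallest non-zero values, multiplied by exon length, put depth at roughly 16000000 to 21000000 fragments per library. Log2 changes are 50-day minus 3-day on a log2(value + 1) scale, after a scaling that takes the bulk of genes as unchanged, and a gene is called at a limma adjusted p under 0.05 over all 8742 genes. Levels are given as deposited, and fold ratios use scaled means.

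Of the 8 genes, 3 rose with age (tobi, UGP and Tret1-1), 2 fell (GlyS and GlyP), and Tps1, Treh and AGBE were not called. Over all genes tested 39.1% were called, 18.3% higher and 20.8% lower at 50 days. The 5 called genes are also those in which no 50-day library overlapped a 3-day library in scaled values, which held for 54.3% of all genes tested. Of the 3 that rose, tobi alone was called and at least 2-fold higher, as were 4.67% of all genes tested. The median log2 change was 0.029 over the 8 genes and -0.0011 over all genes tested.

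**Figure D1:**
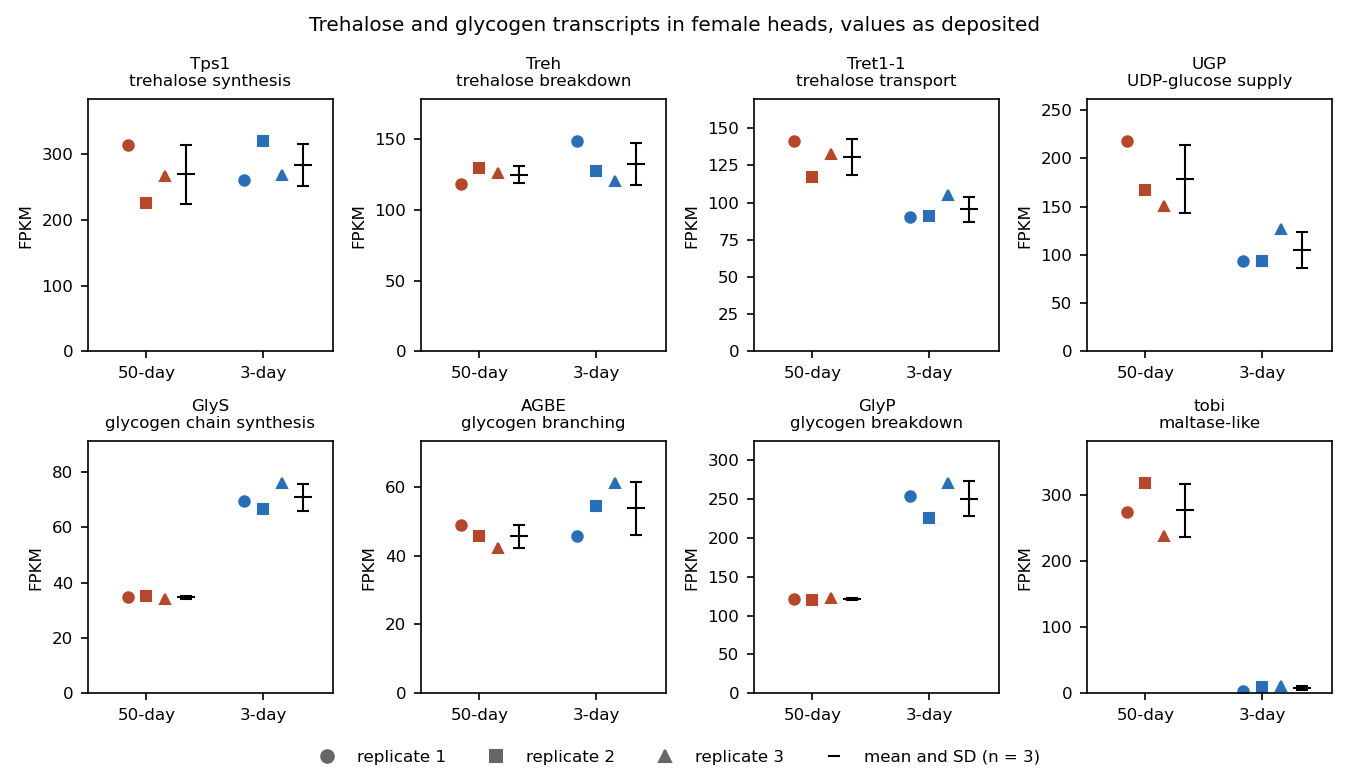
FPKM as deposited (y axis, from 0) of the 8 trehalose and glycogen genes in 50-day (left) and 3-day (right) heads, a point per library, with mean and SD of 3 libraries. tobi stands at 238 to 318 FPKM in 50-day libraries against 4.40 to 10.9 FPKM in 3-day libraries, GlyS and GlyP lie lower at 50 days, and the ages overlap in Tps1, Treh and AGBE.

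The maltase-like gene tobi had by far the largest change of the 8. It had 275, 318 and 238 FPKM in the 50-day libraries and 4.40, 9.91 and 10.9 FPKM in the 3-day libraries. Its lowest 50-day library was thus far above the highest 3-day library, and within the 3-day group replicate 1 was the lowest. The means were 277 ± 40.1 FPKM at 50 days and 8.40 ± 3.50 FPKM at 3 days (SD, n = 3 each), a 35.7-fold ratio. The log2 change of 5.06 (SE 0.28, limma adjusted p 3.31e-05) ranked 15 of 8742 from the top, and 16 genes, or 0.183%, had a log2 change of at least 5. Without 3-day replicate 1 the log2 change was 4.73, and over 14 alternative fits it ran from 4.73 to 5.28 with every fit calling it (adjusted p 1.85e-09 to 0.000411). In Drosophila, tobi is known to be expressed in fat body and gut and to respond to the insulin-producing and adipokinetic hormone cells and to dietary protein and sugar.

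The gene lies on chromosome arm 3R, positions 25344761 to 25346921, minus strand, in the BDGP6.54 annotation, with 1 transcript of 2104 exon bases. It shares 78 exon bases with rha on the opposite strand, whose level was 0.182 to 0.212 FPKM at 50 days and 0.154 to 0.281 FPKM at 3 days. The nearest tested genes on either side were not called. Fur1, which lies 509 bases away, had a log2 change of 0.21 (adjusted p 0.121), and CG11902, which lies 4672 bases away, had -0.079 (adjusted p 0.430).

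UGP, the enzyme that makes the UDP-glucose used for both stores, rose. It had 218, 167 and 151 FPKM at 50 days and 93.8, 94.0 and 127 FPKM at 3 days. The ages did not overlap, with 50-day replicate 1 the highest of its age and 3-day replicate 3 the highest of its own. The log2 change was 0.87 (SE 0.19, adjusted p 0.00903), or 1.85-fold, and it was called in all 14 alternatives (log2 change 0.58 to 1.01, adjusted p 0.00427 to 0.0370). UGP (3L, 9350867 to 9358935, minus strand) shares 602 exon bases with PGRP-LF on the opposite strand, which was also higher (log2 change 0.99, adjusted p 0.00122). PGRP-LF ran from 13.2 to 18.9 FPKM at 50 days and from 7.07 to 8.99 FPKM at 3 days, well under UGP. Whether the counting used strand is not stated, so reads in the shared stretch cannot be assigned to either gene.

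On the trehalose side, the transporter changed while the synthase and trehalase were not called. Tret1-1, which carries trehalose across cell membranes and is known in Drosophila from the perineurial glia of the blood-brain barrier, had 141, 117 and 133 FPKM at 50 days and 90.0, 91.0 and 105 FPKM at 3 days. Every 50-day library was above every 3-day library. The log2 change was 0.56 (SE 0.12, adjusted p 0.00895), or 1.48-fold. Of the 14 alternatives, whose adjusted p ran from 0.00843 to 0.0725, the call was lost only after rescaling each library to the same sum (log2 change 0.27, adjusted p 0.0725). That scaling puts the median of all genes at -0.26. Tret1-1 (2R, 11665768 to 11674782, plus strand) lies inside Roc2, which is on the opposite strand and shares no exon base with it. Roc2 was not called (log2 change -0.056, adjusted p 0.607).

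Tps1, which makes trehalose from UDP-glucose and glucose-6-phosphate and lies on 2L (4388327 to 4392778, plus strand), had 314, 225 and 267 FPKM at 50 days and 260.4, 319.7 and 269 FPKM at 3 days. The ages overlapped, and replicate 1 was the highest at 50 days whereas replicate 2 was the highest at 3 days. The log2 change was 0.028 with a 95% interval of -0.35 to 0.41 (adjusted p 0.907). Treh, which splits trehalose to glucose, had 118, 129.6 and 126 FPKM at 50 days and 148, 127 and 120.4 FPKM at 3 days. Here too the ages overlapped, and the log2 change was 0.030 with a 95% interval of -0.21 to 0.27 (adjusted p 0.844). Treh (2R, 21074018 to 21088945, plus strand) shares 560 exon bases with Rbpn-5 on the opposite strand, which was not called (log2 change -0.050, adjusted p 0.711).

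Among the glycogen genes, synthase and phosphorylase fell side by side. GlyS, which extends glycogen chains, had 34.8, 35.3 and 34.1 FPKM at 50 days and 69.6, 66.8 and 76.1 FPKM at 3 days. In deposited values the 50-day libraries lay within a narrow band under all 3-day libraries. After scaling, the SD of GlyS was 6.10% of the mean at 50 days and 7.62% at 3 days. The log2 change was -0.90 (SE 0.089, adjusted p 0.000299), that is, 1.89-fold lower, and ranked 297 of 8742 from the bottom. GlyP, which releases glucose-1-phosphate from glycogen, had 121, 120.4 and 123 FPKM at 50 days and 253, 226 and 270.4 FPKM at 3 days. Its deposited 50-day values again differed little from each other and lay under every 3-day library. After scaling, the SD of GlyP was 5.45% of the mean at 50 days and 10.1% at 3 days. The log2 change was -0.92 (SE 0.11, adjusted p 0.000544), that is, 1.91-fold lower, at rank 280 from the bottom. Both calls held in all 14 alternatives, with log2 changes of -1.18 to -0.84 for GlyS (adjusted p 3.72e-06 to 0.00286) and -1.21 to -0.86 for GlyP (adjusted p 3.72e-06 to 0.00371). GlyS (3R, 15141843 to 15147531, minus strand) and GlyP (2L, 2130813 to 2137296, plus strand) overlap no other annotated gene.

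AGBE, which adds the branches to glycogen and lies on 2R (13171401 to 13174796, plus strand), was not called. It had 48.9, 45.6 and 42.2 FPKM at 50 days and 45.8, 54.4 and 61.1 FPKM at 3 days, and the ages overlapped. The log2 change was -0.12 with a 95% interval of -0.42 to 0.18 (adjusted p 0.497). Rescaling to the same sum was the sole alternative that called it (log2 change -0.40, adjusted p 0.0160), and the adjusted p over all 14 ran from 0.0160 to 0.914.

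Ratios of transcripts within a library do not depend on how libraries are scaled. The ratio of GlyS to GlyP was 0.287, 0.293 and 0.278 in 50-day libraries and 0.275, 0.296 and 0.281 in 3-day libraries. These values overlapped, and the difference of log2 ratios was 0.011 against an SD of 0.037 at 50 days and 0.054 at 3 days (exact permutation test over 6 libraries, two-sided, p = 0.8). AGBE to GlyS was 1.40, 1.29 and 1.24 at 50 days and 0.657, 0.815 and 0.803 at 3 days, so the branching enzyme outnumbered the synthase per length in every 50-day library and in no 3-day library.

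UGP to GlyS was 6.25, 4.74 and 4.42 at 50 days and 1.35, 1.41 and 1.66 at 3 days, a 3.46-fold difference. UGP to Tps1 was 0.694, 0.743 and 0.564 at 50 days and 0.360, 0.294 and 0.472 at 3 days. Tps1 to GlyS was 9.01, 6.39 and 7.83 at 50 days and 3.74, 4.79 and 3.53 at 3 days. In these 4 ratios the ages did not overlap, which gives an exact permutation p of 0.1, the smallest that 3 against 3 libraries allow (0.15 adjusted over the 6 ratios). Tps1 to Treh was 2.66, 1.74 and 2.12 at 50 days and 1.75, 2.51 and 2.23 at 3 days, with the ages overlapping fully (exact permutation p = 1).

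**Figure D2:**
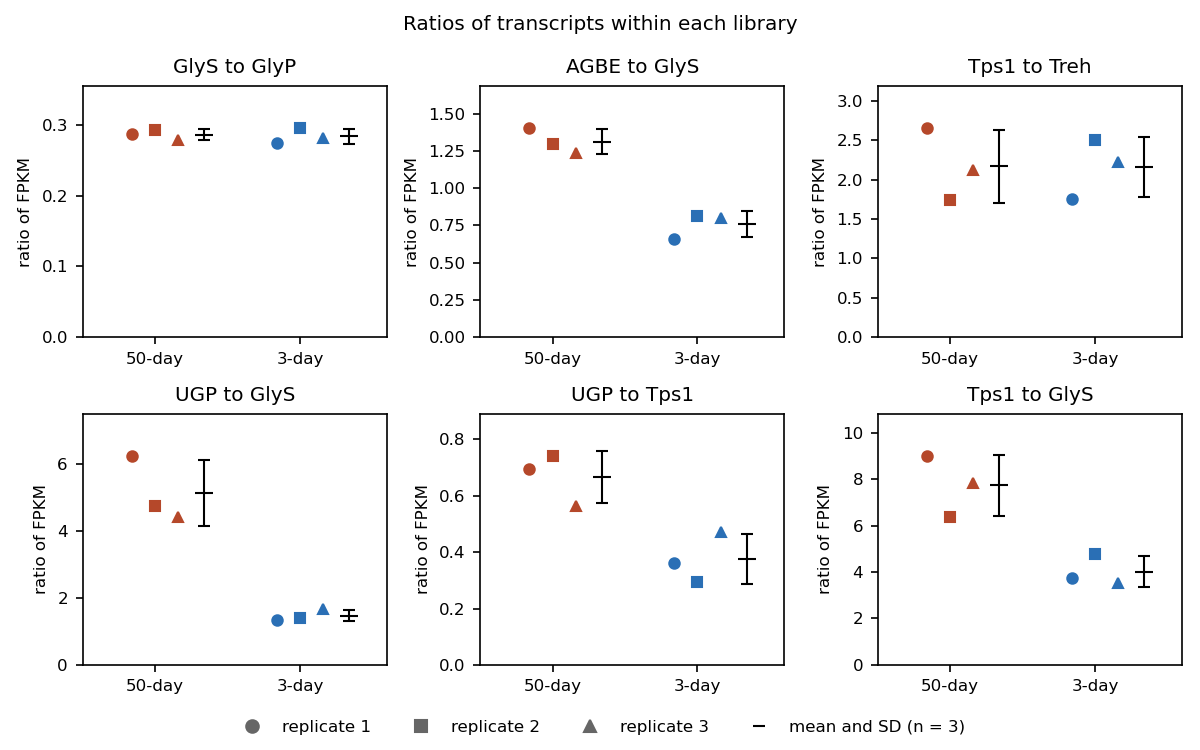
Ratios of FPKM within each library (y axis, from 0) for 6 pairs of genes in 50-day (left) and 3-day (right) heads, a point per library, with mean and SD of 3 libraries. GlyS to GlyP stays between 0.275 and 0.296 in all 6 libraries, while UGP to GlyS is 4.42 or more at 50 days and 1.66 or less at 3 days.

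The order of the levels per gene length changed with age. At 50 days tobi and Tps1 stood highest, with overlapping libraries, followed by UGP. Tret1-1, Treh and GlyP came next and overlapped each other, and AGBE and GlyS were lowest and did not overlap. At 3 days Tps1 and GlyP were highest and overlapped, followed by Treh and UGP, which overlapped, and Tret1-1, which overlapped UGP. GlyS, AGBE and tobi followed, each apart from the next, so tobi stood last of the 8 at 3 days and level with the highest at 50 days.

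Members of the same pathways outside the 8 genes also moved in both directions. Over all genes tested 18.3% were called higher and 20.8% lower. Of 4 other trehalose genes, 3 were tested, and 2 rose and 1 fell. Tret1-2, the close relative that begins 1152 bases beyond Tret1-1 on 2R, had 16.9, 10.04 and 10.8 FPKM at 50 days and 2.44, 3.05 and 1.62 FPKM at 3 days. Its log2 change was 2.09 (SE 0.23, adjusted p 0.000474), a 5.80-fold ratio at a far lower level than Tret1-1. Reads shared by the pair cannot be assigned from the table, so the split between them is uncertain. CG5171 and CG5177, neighbours on 2L with 499 bases between them, moved apart. CG5171 had 78.3, 57.2 and 49.7 FPKM at 50 days and 27.3, 37.0 and 39.9 FPKM at 3 days (log2 change 0.91, adjusted p 0.0108). CG5177 had 36.7, 40.6 and 43.2 FPKM at 50 days and 73.1, 66.9 and 85.6 FPKM at 3 days (log2 change -0.78, adjusted p 0.00115). CG5171 was thus the higher of the pair in every 50-day library and the lower in every 3-day library. CG6262 did not exceed 0.0273 FPKM in any library, too low to be tested.

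Of 6 other glycogen genes, 1 rose, 2 fell and 3 were not called. Called genes thus made up 50% of this list, beside 39.1% of all genes tested. The median log2 change was 0.049, which turned to -0.058 without scaling and -0.23 after rescaling to the same sum. Glycogenin, the primer on which a glycogen particle starts, fell to 21.5, 24.8 and 25.6 FPKM at 50 days, against 44.9, 41.4 and 44.0 FPKM at 3 days (log2 change -0.73, adjusted p 0.000397). CG9485 fell to 26.4, 22.5 and 24.0 FPKM at 50 days, against 43.1, 40.2 and 48.4 FPKM at 3 days (log2 change -0.72, adjusted p 0.00223). In both genes every 50-day library lay under every 3-day library, as in GlyS and GlyP. The ages did not overlap in scaled values, in either direction, in 54.3% of all genes tested. The genes not called were PhKgamma, a subunit of the kinase that activates phosphorylase, CG7766 and CG8475, with log2 changes of 0.074, 0.19 and 0.023.

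Pgm1 (Pgm in the table), which interconverts glucose-1-phosphate and glucose-6-phosphate, had 262, 197 and 190 FPKM at 50 days and 134, 156 and 182 FPKM at 3 days (log2 change 0.56, adjusted p 0.0406). The call was not stable. Dropping replicate 1 of the 50-day group gave a log2 change of 0.37 and an adjusted p of 0.0910, and dropping replicate 2 of that group gave 0.0552. Dropping 3-day replicate 1 gave 0.115, and dropping 3-day replicate 2 gave 0.102. Testing every gene without a filter gave 0.0685, the replicate block 0.0859 and the same sum 0.110, and the adjusted p over all alternatives ran from 0.0314 to 0.115.

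**Figure D3:**
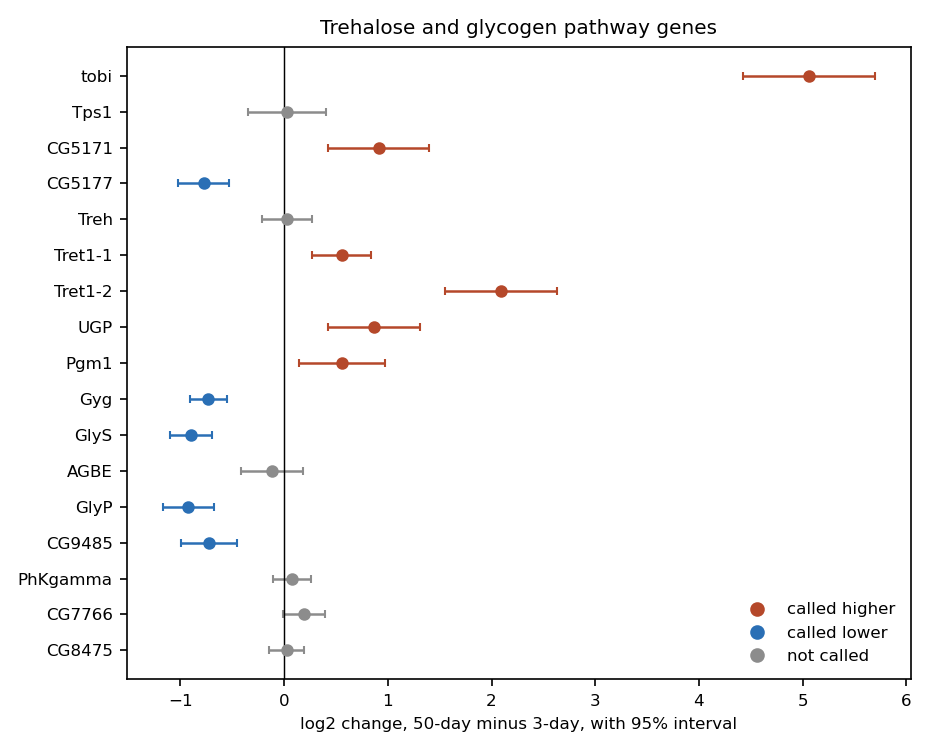
Log2 change, 50-day minus 3-day (x axis), with 95% interval for the 8 trehalose and glycogen genes and the tested genes of the other trehalose and glycogen lists. Glycogenin (Gyg), GlyS, GlyP and CG9485 lie between -0.92 and -0.72, as does CG5177 of the trehalose list at -0.78. AGBE and Tps1 lie near 0 and tobi at 5.06.

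In 5 further lists of carbohydrate genes, counts of calls were read against the background of 39.1%. Of 13 glycolysis genes, 2 rose, 4 fell and 7 were not called, with a median of -0.22. Of those that fell, PyK was near the threshold (adjusted p 0.0463) and was called in 5 of 14 alternatives. The list held 9 called genes without scaling and 5 to 6 with 1 library left out. Pfk, the committed step of glycolysis, fell to 48.1, 55.5 and 54.3 FPKM at 50 days, against 94.2, 92.4 and 105 FPKM at 3 days (log2 change -0.76, adjusted p 0.000474). Gapdh1 had a log2 change of -0.99 (adjusted p 0.00322). Hex-C, the hexokinase of the fat body, rose to 149.5, 94.4 and 90.6 FPKM at 50 days, against 32.6, 28.4 and 39.1 FPKM at 3 days (1.79, adjusted p 0.000815), and Ldh (ImpL3 in the table) changed by 2.01 (adjusted p 0.00280).

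Of 4 tested genes of gluconeogenesis and sugar phosphatases, 2 rose and 1 fell. The fructose-bisphosphatase fbp had a log2 change of 1.18 (adjusted p 0.00433), and PCB, pyruvate carboxylase, had 0.62 (adjusted p 0.0140), while G6P, glucose-6-phosphatase, had -0.43 (adjusted p 0.0257). Without 3-day replicate 2, fbp alone was called. PCB then had an adjusted p of 0.0538, and its alternatives spanned 0.0109 to 0.0630, the last after rescaling to the same sum. G6P then had 0.0868, the top of its span from 0.00487, and was also lost without 50-day replicate 1 or 3 (adjusted p 0.0835 each).

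Of 11 genes in the maltase list, which includes GCS2alpha as a relative of tobi, 4 were tested and 1 was called. Mal-B2 had 117, 61.9 and 76.8 FPKM at 50 days and 29.9, 35.7 and 42.0 FPKM at 3 days (log2 change 1.29, adjusted p 0.00476), a rise smaller than that of tobi, a difference that was not tested. Of 5 tested sugar transporters, 2 rose and 1 fell. The glucose carrier Glut1 had a log2 change of -0.46 (adjusted p 0.0137). The sugar carrier genes nebu (CG10960 in the table) and sut2 had 0.55 (adjusted p 0.00308) and 0.62 (adjusted p 0.00810), and rescaling to the same sum lost both calls (adjusted p 0.0784 for nebu, whose alternatives started at 0.00256, and 0.0580 for sut2, whose alternatives started at 0.00323). The level of sut2 was low, at 1.69 to 2.52 FPKM at 50 days and 0.986 to 1.17 FPKM at 3 days. With a pseudocount of 0.1 its log2 change was 0.97.

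Of 11 genes of hormones and the sugar response, 6 rose and 2 fell. AkhR, the receptor through which adipokinetic hormone mobilises stores in the fat body, had 35.6, 29.9 and 23.9 FPKM at 50 days and 13.0, 14.5 and 14.1 FPKM at 3 days (log2 change 1.14, adjusted p 0.00120). Mondo, a sugar-sensing transcription factor, changed by 0.91 (adjusted p 0.00145). The insulin-like peptides Ilp2 and Ilp3 differed in sign, with log2 changes of 1.03 and -1.47 (adjusted p 0.00163 and 0.000145). Ilp5 and Ilp6 of the same list rose like Ilp2, with log2 changes of 1.03 each (adjusted p 0.00345 and 0.00470).

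**Figure D4:**
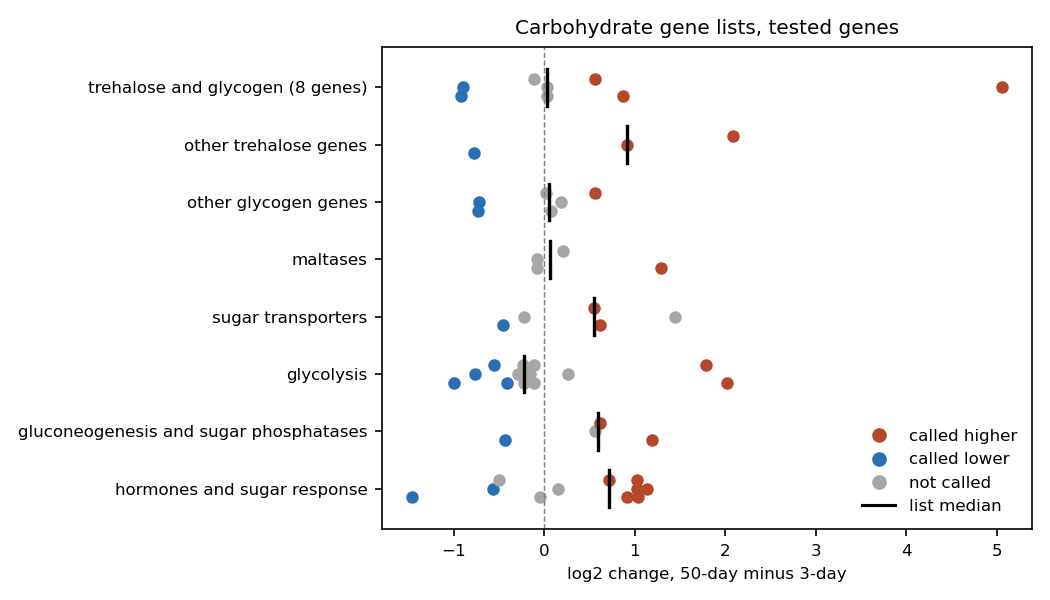
Log2 change, 50-day minus 3-day (x axis), of each tested gene of the 8 trehalose and glycogen genes and 7 other carbohydrate lists (rows), coloured by call, with the list median as a bar. Every list with more than 1 called gene holds genes called in both directions, and tobi at 5.06 lies apart from all others.

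Heads hold several tissues, and their marker transcripts moved with age. Fewer cells of a type and less RNA per cell cannot be told apart in these bulk samples. The 6 fat body markers other than yolk proteins summed to 1449 to 2073 FPKM at 50 days and 687 to 775 FPKM at 3 days (2.49-fold in scaled means). That sum rests on apolpp, the lipoprotein of the hemolymph (4.24-fold). The other 5 summed to 377 to 427 FPKM at 50 days and 365 to 437 FPKM at 3 days. There the ages overlapped (1.08-fold). That smaller sum is mostly FASN1, at 212 to 250 FPKM at 50 days and 262 to 299 FPKM at 3 days (0.872-fold, not called). The remaining markers were bmm (1.93-fold), Lsd-1 (1.40-fold), Fbp1 (3.13-fold, not called) and Cyp4g1 (1.17-fold, not called). With the yolk proteins, all 9 summed 2.66-fold higher. Of all 9 fat body markers 5 rose (apolpp, Yp1, Yp3, Lsd-1 and bmm) and none fell. Over all genes tested 18.3% were called higher and 20.8% lower. Of the 14 alternatives, Lsd-1 was called in 6, Yp1 in 9 and Yp3 in 13, and apolpp and bmm in all. The 7 muscle markers summed to 374 to 459 FPKM at 50 days and 950 to 1611 FPKM at 3 days (2.69-fold lower), and 6 fell.

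The 6 neuronal markers summed to 317 to 385 FPKM at 50 days and 470 to 547 FPKM at 3 days, and 5 fell. The 6 glial markers summed to 592 to 653 FPKM at 50 days and 829 to 952 FPKM at 3 days, with 2 lower, 1 higher and the defining marker repo not called. Most of the glial sum is Gs2, at 390 to 438 FPKM at 50 days and 537 to 621 FPKM at 3 days. Photoreceptor markers summed to 18448 to 23661 FPKM at 50 days and 22801 to 26804 FPKM at 3 days, with 2 of 6 lower. Most of that sum is ninaE (1.02-fold, not called). The ages overlapped in ninaE and trp (0.960-fold, not called). They did not in norpA (0.704-fold), trpl (0.701-fold), Arr1 (0.805-fold, not called) and Arr2 (0.791-fold, not called). Hemocyte markers summed to 34.7 to 51.9 FPKM at 50 days and 24.6 to 42.8 FPKM at 3 days, with none of 4 tested called. Called markers made up 83.3% of the neuronal, 50% of the glial and 33.3% of the photoreceptor list, beside 39.1% of all genes tested. Gut and germline markers summed to at most 1.08 FPKM in any library. Beside these sums, tobi was 35.7-fold, UGP 1.85-fold and Tret1-1 1.48-fold higher at 50 days, and GlyS and GlyP were 1.89-fold and 1.91-fold lower. In the 3-day group replicate 2 was the lowest for GlyS, GlyP and the muscle and glial sums. Replicate 3 was the highest for GlyS, GlyP and the glial sum, and replicate 1 for the muscle sum. The neuronal sum was highest in replicate 1 and lowest in replicate 3. With 3 libraries per age such orders cannot tell tissues apart. The part of these marker shifts in the changes of the 8 genes was not tested.

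**Figure D5:**
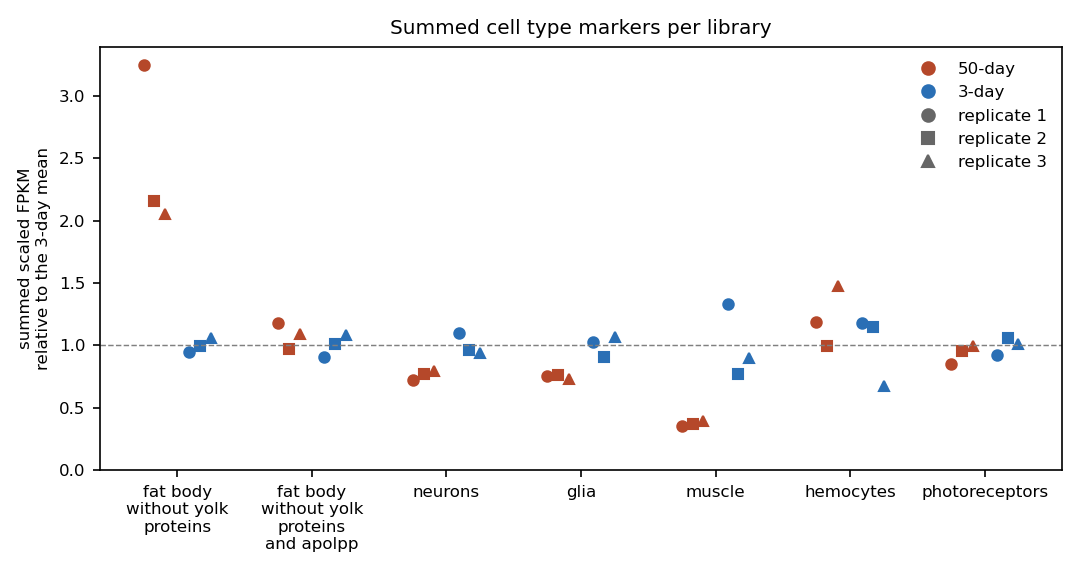
Summed scaled FPKM of marker lists per library relative to the mean of the 3-day libraries (y axis, from 0), 50-day libraries left of 3-day libraries for each cell type. Fat body markers without yolk proteins lie at 2.06 to 3.25 at 50 days, those also without apolpp at 0.972 to 1.18, and muscle markers at 0.352 to 0.392, with neurons and glia between 0.723 and 0.798.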

How the data were processed

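The authors deposited a value per gene for 6 libraries, read here as FPKM because values are not whole numbers, column sums differ, and low values multiplied by exon length cluster at a smallest value. TPM cannot be told apart from it here and would differ by a factor per library, which scaling removes. Depth is not stated. Per the submitters' processing notes, fastp, HISAT2, HTSeq and the build BDGP6 were used; the step that made the deposited FPKM, strand handling and filters are not given in the sources used here. A trimmed-mean factor was applied to each library (genes above 1 FPKM, 30% of ratios and 5% of levels trimmed at each end; factors 0.948 to 1.11). Genes whose scaled values averaged 1 FPKM or more were kept. Log2(value + 1) was fitted with limma 3.58.1 (R 4.3.3) with a mean-variance trend and age as the factor, and adjusted by Benjamini-Hochberg over 8742 genes; intervals are 95%. The model was checked only on data simulated with independent normal noise on the log2 scale and few changed genes. That check does not test the scaling or the noise of real FPKM values. The scale understates changes of low genes.

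Ratios of pairs used exact permutation tests (scipy 1.17.1). Symbols were matched to the BDGP6.54 annotation and RefSeq synonyms (11887 matched, 36 not); positions are from that annotation. The rule for named genes took all 8 genes, CG5171, CG5177, CG6262, Tret1-2, CG9485 and Pgm1 always. It also took up to 4 called genes with the smallest adjusted p in each other list. Some genes, such as Ilp5, Ilp6 and single fat body markers, are given beyond that rule. CG11909, at first listed with the maltases, is tobi itself in RefSeq and was dropped there. Of 57 listed genes, 51 were in the table and 46 tested; 6 are not analysed here. The 8 genes and the lists were chosen with earlier results of these data known. The labels give no batch.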

Additional observations from a re-analysis of the deposited data

How the results depend on the processing

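The 14 alternatives changed the pseudocount (0.1), the filter (none, or a mean of at least 5), the scaling (none, same sum, median of ratios), the variance trend, the replicate block, or left out 1 library. UGP, GlyS, GlyP and tobi were called in the same direction in all of them. The number of genes called, 3418, ran from 2703 to 3859 over the other settings and from 2619 to 3718 with 1 library left out. Rescaling to the same sum called 734 genes higher and 3125 lower, against 1604 and 1814; without scaling the split was 1138 and 2271. The same sum also took Tret1-1 to 0.27 (not called), AGBE to -0.40 (called), Tps1 to -0.26 and Treh to -0.25 (not called). It called 12 of 13 glycolysis genes, and 2 genes of the maltase list, as did no filter on low values. It puts the median of all genes at -0.26. Without scaling Tps1 was at -0.081 and Treh at -0.079. With 1 library left out, Tps1 ran from -0.14 to 0.17 and Treh from -0.030 to 0.14. The difference of log2 ratios of GlyS to GlyP then ran from -0.012 to 0.041 and of Tps1 to Treh from -0.16 to 0.15. Called genes ran from 1 to 2 in the maltase list and from 1 to 3 in the gluconeogenesis list. A change of scaling multiplies all values of a library by the same factor, so it moves the genes together. Why summed values were higher at 50 days was not tested, nor was the cause of the other shifts. Replicate numbers did not pair the ages (correlation of same-numbered deviations -0.21, -0.10 and -0.24). With the replicate block 2703 genes and the same number of the 8 genes, 5, were called. Among the carbohydrate genes named, that block lost the call of Pgm1 (0.56, adjusted p 0.0859, in a range of 0.0314 to 0.115). It called MFS3 higher (1.44, adjusted p 0.00928, in a range of 0.00928 to 0.154). Depth is known only roughly, so values near 0, as for CG6262, carry no counting interval.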

Other observations

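The position of the genes was set beside the changes. Of the 16 nearest tested genes that flank the 8 without overlapping them, 7 were called, beside 39.1% of all genes tested. GlyS lies between CG3984 (log2 change 0.83, adjusted p 0.00135), which was higher at 50 days, and Gyc88E (-0.58, adjusted p 0.00500), which was lower. GlyP lies 53 bases from tho2, which was not called (0.053, adjusted p 0.715). PGRP-LC, which lies 2530 bases from UGP, was higher (0.77, adjusted p 0.000635).

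Among the 19 carbohydrate genes called higher, the 8 genes included, 50-day replicate 1 was the highest 50-day library for 14, replicate 2 for 4 and replicate 3 for 1. Over all 1604 genes called higher, replicate 1 was the highest for 62.7%, replicate 2 for 13.8% and replicate 3 for 23.4%. The 50-day libraries of tobi did not follow that order, with replicate 2 the highest in both deposited and scaled values. MFS3, a carrier listed with the sugar transporters and chosen for mention after its values were seen, had 2.74, 11.3 and 11.7 FPKM at 50 days and 1.08, 5.00 and 1.73 FPKM at 3 days, where the ages overlapped and the gene was not called (log2 change 1.44, adjusted p 0.0530). It was called higher in 5 of 14 alternatives, with log2 changes of 1.15 to 2.00 and adjusted p of 0.00928 to 0.154 over all of them. Without 50-day replicate 1 it was called at 2.00 (adjusted p 0.0105), without 3-day replicate 2 at 1.87 (0.0262), and with the replicate block at 1.44 (0.00928).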
